A study of Rattus norvegicus with 16 samples.

Results

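The genes described here encode the proteins of the cytosolic ribosome. They were chosen by name, as every probe set with a single gene symbol of the form Rps, Rpl or Rplp followed by a number, leaving out the S6 kinases and the ribosomal protein-like genes. This gave 48 probe sets for 44 genes, of 14217 genes with a single symbol on the array: 14 genes of the small subunit (Rps) and 30 of the large subunit (Rpl), of which 2 are annotated as pseudogenes (Rpl37-ps2 and Rps4x-ps1). Rps24, Rpl3, Rpl7 and Rpl14 each had 2 probe sets. The rule by name used no measured value, but the genes were chosen with earlier results of these data known.

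RNA from the hypothalamus of 16 male Wistar rats aged 7 to 8 weeks was measured on 1 single-colour Affymetrix array per rat, with 4 rats in each of 4 groups. Control rats had neither stress nor odour, the second group was restrained for 2 h, the third inhaled (R)-(-)-linalool for 2 h, and the fourth inhaled it while restrained for 2 h. Linalool is a floral-smelling monoterpene alcohol. No dose is stated in the labels, and the samples were whole tissue, so less RNA per cell and fewer cells of a kind cannot be told apart.

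Ribosomal proteins and ribosomal RNA together form the small subunit, which decodes mRNA, and the large subunit, which joins amino acids. Nearly all mRNAs for ribosomal proteins begin with a C and a run of pyrimidines, the 5′ terminal oligopyrimidine (TOP) tract, through which mTORC1 signalling controls how far these mRNAs are translated. An array measures the amount of these mRNAs and not their translation. Ribosomal protein mRNAs are abundant in neurons and glia alike, and several of them are commonly used as reference genes.

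The tract is a feature that the choice by name did not use, and it is shown for genes on which the results below turn. RefSeq start sites (GRCr8) were matched for 35 of the 44 genes. Each line gives 30 bases from 5′ to 3′ on the gene's strand, 10 before the annotated start and 20 from it on. The tract, in capitals, is the match of C and at least 4 more pyrimidines that begins nearest to the annotated start. In several lines, Rps24 among them, the pyrimidine run itself begins further upstream, in lower case. In Rplp0 (chr12:46718371-46718400, minus strand), Rps15 (chr7:10068096-10068125, minus), Rpl19 (chr10:83519054-83519083, plus), Rpl14 (chr8:129163610-129163639, plus) and Rpl35a (chr11:81235002-81235031, minus) the tract began at the start itself. In Rps24 (chr16:96507-96536, plus) it began 1 base after the start, in Rpl4 (chr8:73566467-73566496, plus) 5 bases before and in Rps6 (chr5:106420521-106420550, minus) 10 bases before. Rpl41 (chr7:1563478-1563507, minus) had no such tract within 10 bases of its annotated start.
Rplp0: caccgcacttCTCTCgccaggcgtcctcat
Rps15: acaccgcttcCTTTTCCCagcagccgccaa
Rpl19: ccagcaagctCTTTCCTTTCgctgctgcgt
Rpl14: ggccctctccCTTCTCgctgagcgccgcca
Rpl35a: tcttgccttcCTCTTTCCgccatcttggcg
Rps24: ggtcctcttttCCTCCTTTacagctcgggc
Rpl4: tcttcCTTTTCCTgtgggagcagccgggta
Rps6: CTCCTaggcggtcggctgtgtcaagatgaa
Rpl41: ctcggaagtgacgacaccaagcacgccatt

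A tract beginning exactly at the annotated start was found in 11 of the 35 genes (31.4%), against 854 of 27457 genes of the same table (3.11%). With the start allowed to shift by at most 10 bases either way, it was found in 25 of 35 (71.4%), against 31.3% of all genes. Within the 300 bases from 250 before to 50 after the start, read on both strands, the letters CGGAAG (the core bound by ETS factors) occurred in 45.7% of the ribosomal protein genes and in 18.2% of all. AAGATGG (the core bound by YY1) occurred in 22.9% and 7.77%, and TATAAA in 14.3% and 15.3%. These are matches of letters, given as a description.

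Values below are log2(signal + 16) after quantile normalization, which gives all arrays the same distribution, and a change is a log2 difference with the standard error (SE) of limma's fit. A change was called where limma's p, adjusted over all 18625 tested probe sets by the Benjamini-Hochberg method, was under 0.05. Median signals of the deposited columns ran from 67.0 (control rat 2) to 127 (a restrained rat). Sgk1, a kinase gene induced by glucocorticoids, checked the labels: it rose with restraint by 2.27 without and by 2.07 with the odour (limma adjusted p 4.04e-08 and 1.67e-07). Of 15 hypothalamic neuropeptide genes looked for as a check of the tissue, 12 were measured; their summed signal ran from 20255 to 30947 over all rats and overlapped between groups. The summed signal of 3 pituitary marker genes ran from 208 to 6896 among the control rats and from 2329 to 6996 in the other groups. The BioC hybridization spike-in was high on linalool rats 2 and 4 and on restrained linalool rat 2.

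Most ribosomal protein probe sets gave signals near the top of the array's range. Of the 48 probe sets, 42 (39 genes) passed the filter on low signal. Those that did not were Rpl28, Rpl30, Rps13, Rps4x-ps1, Rps4y2 and the second probe set of Rpl14. Of the 42, 37 were at or above the 97th percentile of all probe set signals and 32 at or above the 99th; these 37 are called bright below. The other 5, called dim, were the second probe sets of Rps24, Rpl3 and Rpl7, and the only ones of Rpl39 and Rpl37-ps2. Brightness depends on the probes as well as on the mRNA, and ribosomal protein genes have many processed pseudogenes of near-identical sequence, so a probe set's signal may hold more than the named gene.

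The bright ribosomal protein signals differed little from rat to rat. The SD within groups had a median of 0.0763 over the 37 bright probe sets, with a range from 0.0347 to 0.169. It had a median of 0.116 over the 3105 probe sets among the brightest 10% of signals, and of 0.172 over all tested. Neither set is matched in brightness to the 37, which were all at or above the 97th percentile. The part of brightness in their low spread was not tested. The plot of spread against signal shows the bright ribosomal protein probe sets at the lower right.

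**Figure D1:**
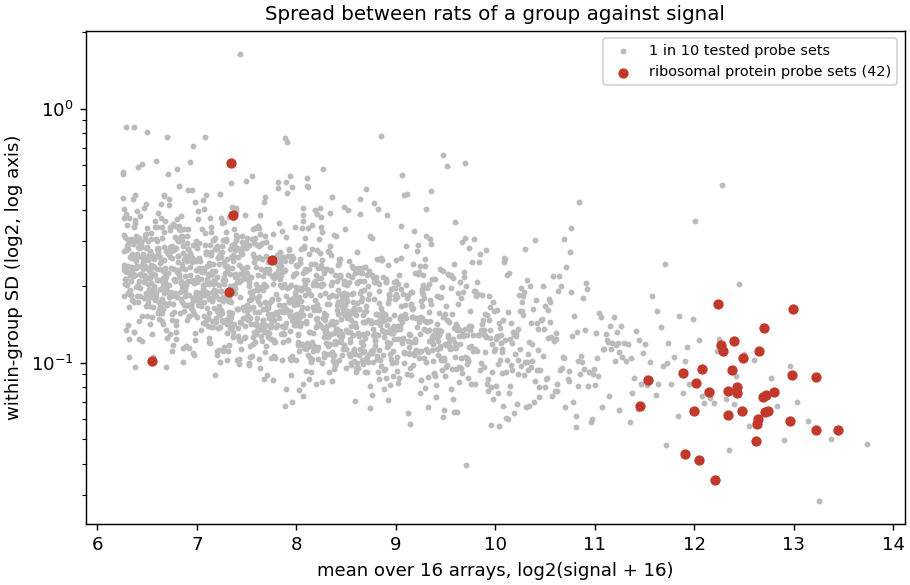
Within-group SD (log2, log axis) against the mean over 16 arrays, log2(signal + 16), for the 42 tested ribosomal protein probe sets (red) and 1 in 10 of the tested probe sets (grey). The 37 bright probe sets have SDs between 0.0347 and 0.169, and the widest spread among the dim ones is 0.609.

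The steadiest were Rpl41 (SD 0.0347), which encodes the smallest protein of the large subunit, Rpl4 (0.0415), whose protein lines the exit tunnel for the new chain, and Rplp0 (0.0435), the base of the stalk that recruits elongation factors. Rplp0 read 11.93, 12.01, 11.92 and 11.90 in the control rats and 11.87, 11.85, 11.89 and 11.93 in the restrained rats. It read 11.87, 11.89, 11.93 and 11.90 with linalool, and 11.98, 11.94, 11.86 and 11.87 with both. All 4 groups overlapped, and the change averaged -0.02 with restraint (SE 0.04, limma adjusted p 0.815) and -0.01 with linalool (SE 0.04, limma adjusted p 0.956).

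Among the bright probe sets the widest spreads were those of Rpl21 (SD 0.169), Rpl37a (0.162) and Rpl35a (0.137), all of the large subunit. For Rpl37a much of this lay in 1 rat: the control rats read 13.13, 12.41, 12.92 and 13.03, and the other 12 rats lay between 12.98 and 13.11. Control rat 2, the low one, also had the lowest median signal of all arrays. Rps3, a small-subunit protein that is also a DNA repair endonuclease, had the same rat low, with 12.31, 11.91, 12.20 and 12.44 in the control rats and 12.25 to 12.36 in the others. Its changes averaged 0.00 with restraint and 0.05 with linalool (SE 0.06 each, limma adjusted p 0.987 and 0.736). Rpl35a likewise had this rat low, with 12.94, 12.34, 12.69 and 12.62 in the control rats. Rpl21 differed by rat elsewhere, at 11.86, 12.43, 11.98 and 12.34 with linalool. The widest spreads of all were those of the dim probe sets of Rpl3 (0.609) and Rpl7 (0.380), followed by Rpl39 (0.253).

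Deviations from the group means were shared in part among the ribosomal protein genes. The mean correlation over the 666 pairs of bright probe sets was 0.214, and 69.4% of pairs were positive. It was 0.420 among the 11 of the small subunit (55 pairs), 0.144 among the 26 of the large subunit (325 pairs) and 0.254 between subunits. Over all probe sets among the brightest 10% of signals it was 0.00455. Quantile normalization removes a shift shared by bright transcripts and so holds that last value near 0. It does not show what a small set of other genes would give. These are descriptions over 16 arrays that all pairs share. The mean was 0.153 without control rat 2, 0.171 without control rats 1 and 2, and 0.189 on the arrays with a low BioC signal.

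The shared part is seen in the level of each rat, taken as the median deviation of the 37 bright probe sets from their means over all rats. Control rats 1 to 4 had levels of 0.06, -0.10, -0.03 and 0.04, which spanned more than any other group. Restrained rats had -0.02, -0.02, -0.01 and 0.00. Linalool rats had 0.00, 0.08, -0.01 and 0.02, and restrained linalool rats 0.01, 0.00, 0.00 and 0.03. The groups overlapped, as the plot of levels by rat shows. Control rat 2 was lowest; control rat 1 was second highest and had the highest ratio of 3′ to 5′ actin signal (4.93, against 2.08 to 3.50 in the other rats), a measure of RNA integrity. The part of RNA quality in these levels was not tested.

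**Figure D2:**
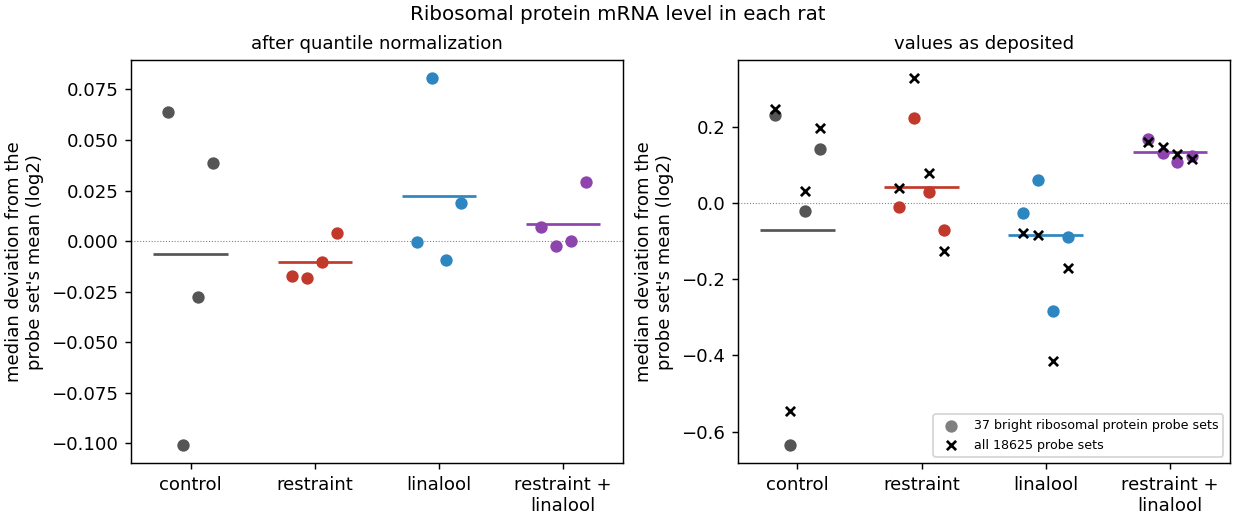
Median log2 deviation of the 37 bright ribosomal protein probe sets from their means over all rats, 1 point per rat, with a line at each group's mean; left after quantile normalization, right for the values as deposited, where crosses give the same for all 18625 tested probe sets. After normalization the rats lie between -0.10 and 0.08 with the groups overlapping, and as deposited the points follow the crosses from -0.63 to 0.23.

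Restraint for 2 h without the odour changed no ribosomal protein mRNA past the threshold. In restrained rats 22 of the 42 probe sets lay above control and 20 below, with a median change of 0.00, the same as over all probe sets. None of the 42 was called (168 of 18625, or 0.902%, of all probe sets were), and 2 had an unadjusted limma p under 0.05, Rpl23a and Rpl19, against 12.6% of all. For 30 of the 37 bright probe sets the 95% interval of the change, unadjusted for the number of genes, lay within 0.25 of 0.

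Rpl23a, which sits at the exit of the tunnel and binds the signal recognition particle, read 12.53, 12.58, 12.63 and 12.47 in the control rats and 12.37, 12.28, 12.34 and 12.48 in the restrained rats. The groups overlapped by 1 rat each, and the change was -0.18 (SE 0.07, limma adjusted p 0.313). Rpl19, a large-subunit protein that bridges to the small subunit, read 12.78, 12.65, 12.75 and 12.63 in control and 12.60, 12.55, 12.52 and 12.56 in restrained rats. Every restrained rat was below every control rat, by a mean of 0.15, which did not pass the test (limma adjusted p 0.345); with linalool, restraint gave 0.00. The other two probe sets whose groups did not overlap were Rpl41 and Rps9, which makes 3 of 42 without overlap, against 5.92% of all probe sets. The other extremes of this comparison, Rpl3 dim (-0.29), Rpl39 (-0.20), Rpl21 (0.11), Rpl37a (0.13) and Rpl37-ps2 (0.15), had overlapping groups and adjusted p of 0.673 or more.

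In rats that had linalool, restraint gave the only call among the genes, in the dim probe set of Rps24. Here 14 probe sets lay above and 28 below, with a median of -0.01 beside -0.02 over all probe sets. The 1 call, a rise, compares with 314 calls (1.69%) over all probe sets, 1.12% being rises, and 3 (Rps24 dim, Rpl3 dim and Rpl13a) had an unadjusted limma p under 0.05, against 16.2%. Of the small subunit's 12 probe sets 9 lay below (median -0.05), and of the large subunit's 30, 19 (median -0.01). The 95% interval lay within 0.25 of 0 for 31 of 37 bright probe sets.

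Rps24 encodes a small-subunit protein needed for the maturation of 18S rRNA, and its mRNA is alternatively spliced at the 3′ end. Which of its transcripts the dim probe set measures was not determined. That probe set was at the 45.0th percentile of signals, near the filter at the 40th. The dim Rps24 probe set (mean 6.55) read 6.55, 6.52, 6.63 and 6.80 in control, 6.60, 6.77, 6.69 and 6.70 in restrained, 6.17, 6.36, 6.21 and 6.27 in linalool, and 6.71, 6.73, 6.49 and 6.56 in restrained linalool rats. The 4 linalool rats without restraint lay below the other 12 rats, and those other groups overlapped one another. This pattern was singled out after the values were seen, so its share is no test. Unrestrained linalool rats lay below all others for 1 of 42 probe sets and for 0.215% of all tested. They lay above all others for 0 of 42 and for 0.349%. With linalool, restraint raised the dim Rps24 signal by 0.37 (SE 0.08, limma adjusted p 0.0339), a factor of 1.29. Linalool alone gave -0.37 against control, of the same size, but did not pass (limma adjusted p 0.282), and restraint without linalool gave 0.06 (limma adjusted p 0.814). These comparisons share groups. The difference between the 2 restraint effects was 0.31 (SE 0.12, limma adjusted p 0.562), so it was not shown to depend on the odour.

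The bright probe set of the same gene did not show it. It read 12.86, 12.68, 12.74 and 12.76 in control, 12.72, 12.71, 12.79 and 12.78 in restrained, 12.78, 12.87, 12.67 and 12.70 in linalool and 12.67, 12.69, 12.73 and 12.74 in restrained linalool rats. All groups overlapped, and restraint with linalool gave -0.05 (SE 0.07, limma adjusted p 0.776). In the plot of both Rps24 probe sets the linalool group stands apart in the dim one only; whether the probe sets differ from each other was not tested. The summed signal of 7 astrocyte marker genes was also lowest in the linalool rats, at 31716 to 34609 against 34957 to 37563 in the other groups. Such a sum weights the brightest genes, and the list's median change for linalool against control was -0.07. The lowest sums of neuron markers (27589) and oligodendrocyte markers (36552) were in linalool rats too, with overlapping groups. The part of these cell types in the Rps24 value was not tested. The call was kept in 11 of the 16 fits that left out 1 rat each (changes from 0.33 to 0.41, adjusted p from 0.0290 to 0.120). It was lost without linalool rat 1, 3 or 4 or restrained linalool rat 1 or 2, with no filter on low signal (adjusted p 0.0773), on the low-BioC arrays alone (0.133) and with a replicate block (0.0512), where the change was 0.37, 0.40 and 0.37.

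**Figure D3:**
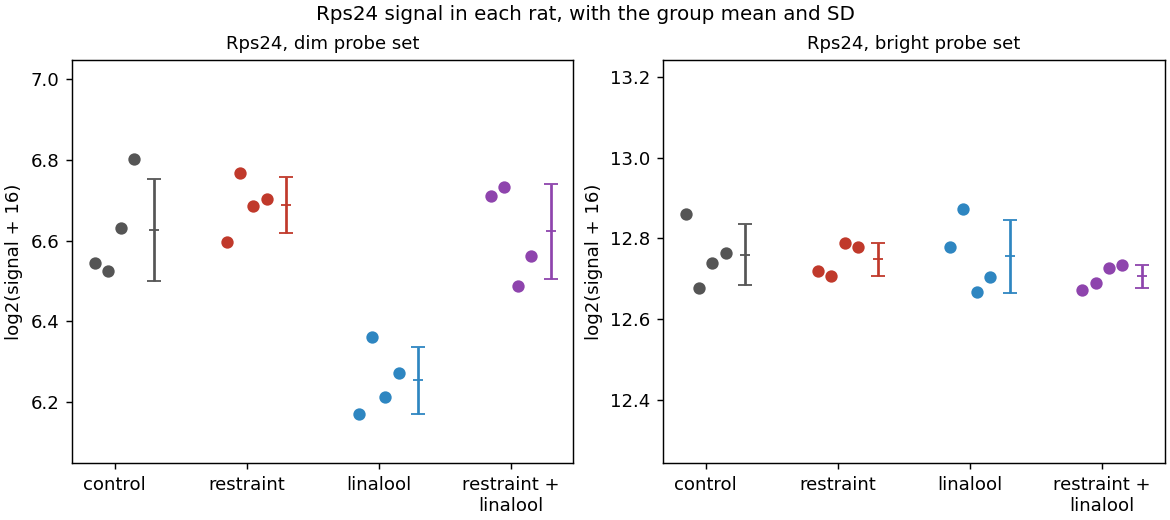
log2(signal + 16) of the dim and the bright Rps24 probe set in each rat, by group, with the group mean and SD (n = 4). In the dim probe set the linalool rats lie between 6.17 and 6.36 and all other rats at 6.49 or above; in the bright one all groups overlap between 12.67 and 12.87.

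Rpl3 encodes a protein that reaches the catalytic centre of the large subunit. Its probe sets differed by over 0.3 in their average effects, a difference that was not tested. Its dim probe set (of the x_at type, whose probes may match other transcripts) read 8.07, 7.77, 7.49 and 7.78 in control and 5.84, 7.17, 6.60 and 6.93 in linalool rats. These groups did not overlap, but the rats of each differed widely, and the change of -1.14 did not pass (SE 0.38, limma adjusted p 0.348). Under restraint it read 8.35, 8.01, 7.39 and 6.20 without and 7.52, 8.00, 7.48 and 6.92 with linalool. With linalool, restraint gave 0.84 (SE 0.38, limma adjusted p 0.282), which was called only in the values as deposited (1.17, limma adjusted p 0.0317). The bright Rpl3 probe set lay between 12.87 and 13.11 in all 16 rats, and its changes averaged -0.06 with restraint and -0.01 with linalool.

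Rps6 is the small-subunit protein phosphorylated by the S6 kinases below mTORC1. Its mRNA read 12.72, 12.77, 12.79 and 12.71 with linalool and 12.65, 12.68, 12.69 and 12.69 with both, so that these groups did not overlap. The change was small, -0.07 (SE 0.07, limma adjusted p 0.699). Rpl13a, which besides its place in the ribosome is part of a complex that represses translation of inflammatory mRNAs, read 12.39, 12.74, 12.42 and 12.63 with linalool and 12.74 to 12.76 with both (0.21, SE 0.09, limma adjusted p 0.259). The linalool rats spanned a wide range there and overlapped the others. The groups of this comparison did not overlap for 3 of 42 probe sets (Rps24 dim, Rps6 and Rpl41), against 12.3% of all. The lowest changes were those of Rpl7 dim (-0.13), Rps9 (-0.12) and Rps15a (-0.09), and Rpl39 was at 0.23; none passed.

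Averaged over both odour conditions, restraint again gave 1 call of 42, beside 784 of 18625 (4.21%) over all probe sets, 2.65% being rises, and 3 had an unadjusted limma p under 0.05 (Rps24 dim, Rpl41 and Rps9), against 18.9%. It was the dim Rps24 probe set, at 0.22 (SE 0.06, limma adjusted p 0.0499), next to the threshold, and it was called in only 3 of the 16 fits that left out 1 rat (control rat 4, linalool rat 2 or restrained linalool rat 3). It was not called in 7 of the other settings tried, in which the change ran from 0.17 (without control rats 1 and 2) to 0.43 (as deposited), with 0.22 and 0.24 when scaled to the same median or trimmed mean. The median was -0.01 for the ribosomal protein genes and for all. Rps9, a small-subunit protein that helps to keep decoding accurate, had the lowest change. It read 12.02, 12.11, 12.03 and 12.09 in control and 11.99, 11.89, 11.95 and 11.99 in restrained rats, and 12.07, 12.07, 11.92 and 12.10 with linalool against 11.95, 11.82, 11.89 and 12.01 with both. The restrained rats were below the controls without overlap in the first pair and overlapped in the second, and the average change of -0.11 (SE 0.05) did not pass (limma adjusted p 0.201).

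Rpl41 had the second lowest average change. It read 12.16, 12.27, 12.26 and 12.22 in control and 12.11, 12.13, 12.13 and 12.14 in restrained rats, and 12.24, 12.28, 12.33 and 12.24 with linalool against 12.17, 12.19, 12.17 and 12.23 with both. Restrained rats lay below their own comparison group without overlap in both pairs, by a mean of 0.09 over the pairs. Even so the limma adjusted p was 0.249 (SE 0.04). Rpl7 dim followed at -0.08, and Rpl3 dim was highest at 0.28 (SE 0.27, limma adjusted p 0.637). Rpl21 was the highest bright one at 0.15 (SE 0.08, limma adjusted p 0.352), and its 95% interval, up to 0.33, was the only one among the 37 that left the range within 0.25 of 0.

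**Figure D4:**
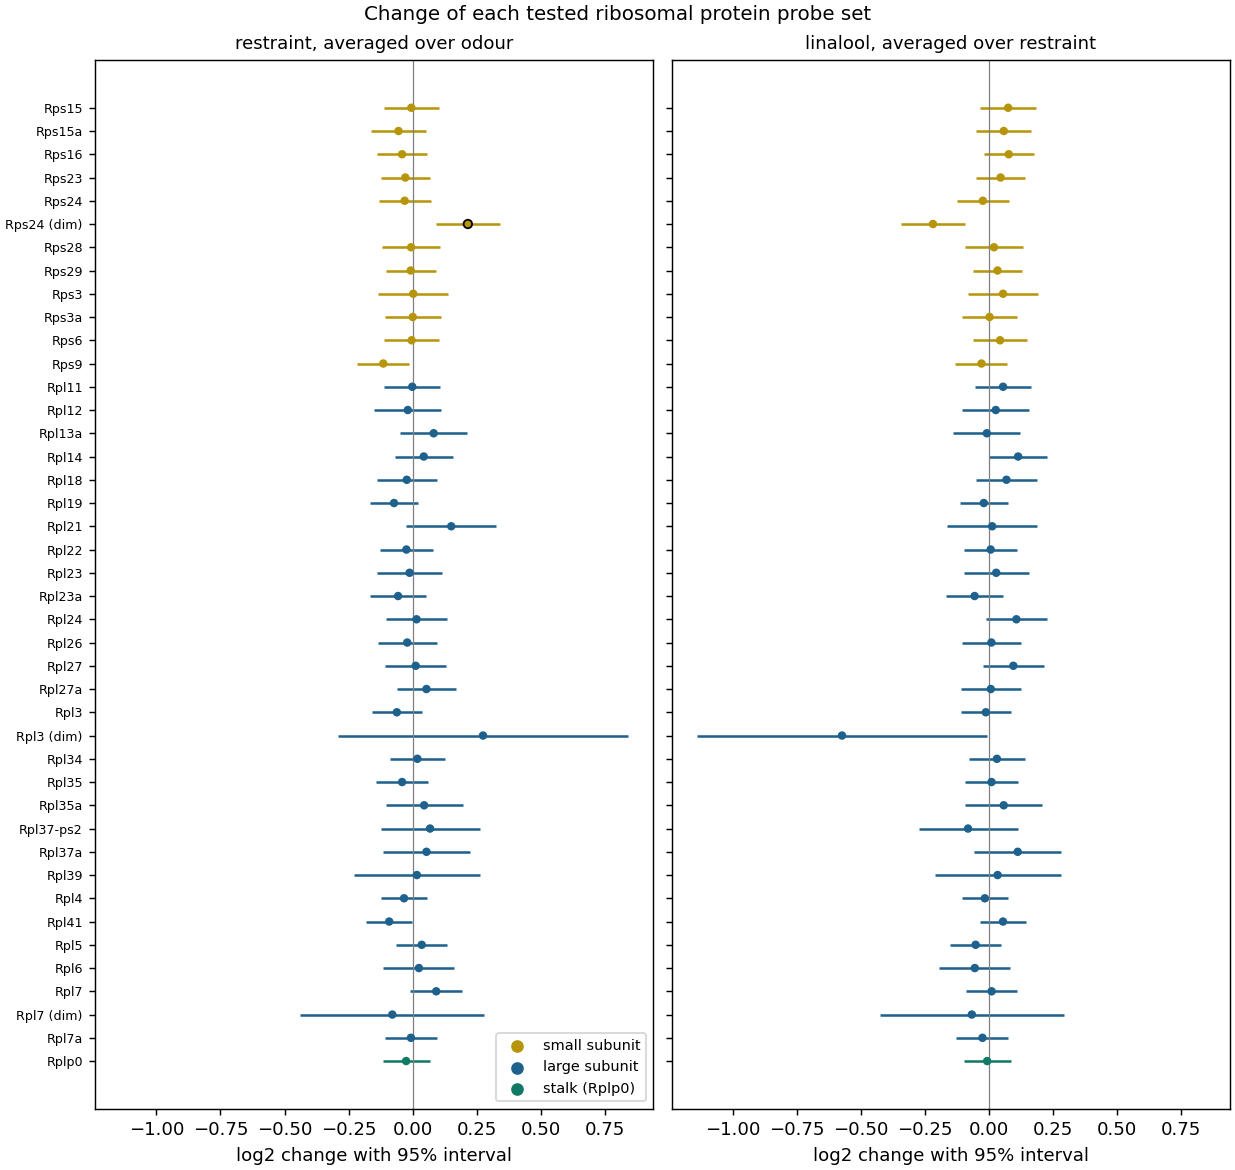
Log2 change of each tested ribosomal protein probe set (42) with its 95% interval, for restraint averaged over odour (left) and linalool averaged over restraint (right); small subunit, large subunit and stalk in different colours, and a black outline for a call. For both effects 36 of the 37 bright probe sets have intervals within 0.25 of 0, and the dim probe set of Rps24 is the only call.

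Inhaling linalool changed no ribosomal protein mRNA past the threshold. In unrestrained rats 24 probe sets lay above control and 18 below, with a median of 0.01 beside 0.00 over all probe sets. None was called by limma, as for all 18625 (0%), and 3 had an unadjusted p under 0.05 (Rps24 dim, Rpl3 dim and Rpl23a), against 9.83% of all. The 95% interval lay within 0.25 of 0 for 25 of the 37 bright probe sets. Of the small subunit's 12 probe sets 8 were above control (median 0.06), and of the large subunit's 30, 16 (median 0.01).

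Rps15, a small-subunit protein near the decoding site, read 12.18, 11.88, 12.12 and 12.14 in control and 12.18, 12.22, 12.27 and 12.20 in linalool rats. The linalool rats lay above all controls, control rat 2 lowest (0.14, SE 0.07, limma adjusted p 0.542). Rpl23a lay the other way, at 12.33, 12.39, 12.44 and 12.32 with linalool and 12.47 or more in control, again without overlap (-0.18, SE 0.07, limma adjusted p 0.436). With Rps24 dim and Rpl3 dim these made 4 of 42 probe sets without overlap, against 4.74% of all. The highest changes were those of Rpl37a (0.19) and the bright probe set of Rpl14 (0.16), both with a low control rat.

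In restrained rats linalool gave values above those of restraint alone for 29 of 42 probe sets, with a median of 0.02 beside -0.02 over all. With arrays scaled to the same median these were -0.02 and -0.05, so the sign of the first depended on the scaling. None of the 42 was called (121, or 0.65%, of all were), and 0 had an unadjusted limma p under 0.05, against 12.6% of all. Rps29, a small zinc-binding protein of the small subunit, read 13.41, 13.32, 13.42 and 13.41 under restraint and 13.45, 13.53, 13.52 and 13.52 with linalool added, without overlap (0.12, SE 0.06, limma adjusted p 0.485). Rpl4 and Rpl5, which carries 5S rRNA, lay lower without overlap, at -0.07 and -0.09, and Rpl41 higher at 0.06. These 4 of 42 compare with 10.4% of all. The extremes were Rpl39 (0.25), Rps29 and Rpl13a (0.11) on one side and Rpl37-ps2 (-0.16), Rpl6 (-0.12) and Rpl7 dim (-0.11) on the other, all but Rps29 with overlapping groups.

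The linalool effect averaged over both conditions was not called for any of the 42 by limma (133, or 0.714%, of all probe sets were), with 2 at an unadjusted p under 0.05 (Rps24 dim and Rpl3 dim, both lower) against 14.8% of all. The median was 0.01, beside -0.01 over all. The highest were Rpl14 (0.11, limma adjusted p 0.338), Rpl37a (0.11) and Rpl24 (0.11), and the lowest were the dim probe sets of Rpl3 (-0.57) and Rps24 (-0.22) and Rpl37-ps2 (-0.08). Rpl14 read 11.27, 11.54, 11.40 and 11.53 in control and 11.48, 11.70, 11.56 and 11.64 with linalool, with the groups overlapping. The test of whether restraint acted differently with linalool gave no call among the 42, nor among all 18625 (0%), and 3 at an unadjusted limma p under 0.05 (Rps24 dim, Rpl3 dim and Rpl23a) against 7.99% of all. The differences ran from -0.16 (Rpl37a), -0.15 (Rpl37-ps2) and -0.13 (Rps15) to 0.31 (Rps24 dim), 0.43 (Rpl39) and 1.14 (Rpl3 dim). Only 10 of 37 bright probe sets had an interval within 0.25 of 0 for that difference, so it was measured less closely than the effects themselves.

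The direction of the ribosomal protein genes as a group depended on how the arrays were put on a common level. Scaled to the same trimmed mean, the 37 bright probe sets had a median of 0.17 for linalool against control, and of -0.15 for restraint with linalool against linalool. The 522 other probe sets in the same top range of signals had 0.12 and -0.12, and all probe sets 0.01 and -0.01. As deposited, the medians were -0.01 and 0.21 for the ribosomal protein genes, -0.07 and 0.24 for the other bright ones, and -0.17 and 0.32 for all. The plot of medians by scaling shows the ribosomal protein genes beside the other bright probe sets in each case. Quantile normalization removes a shift shared by all bright transcripts, real or not, so the values above are changes relative to transcripts of like brightness. No ribosomal protein probe set other than Rps24 dim, and Rpl3 dim in the values as deposited, was called under these scalings.

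**Figure D5:**
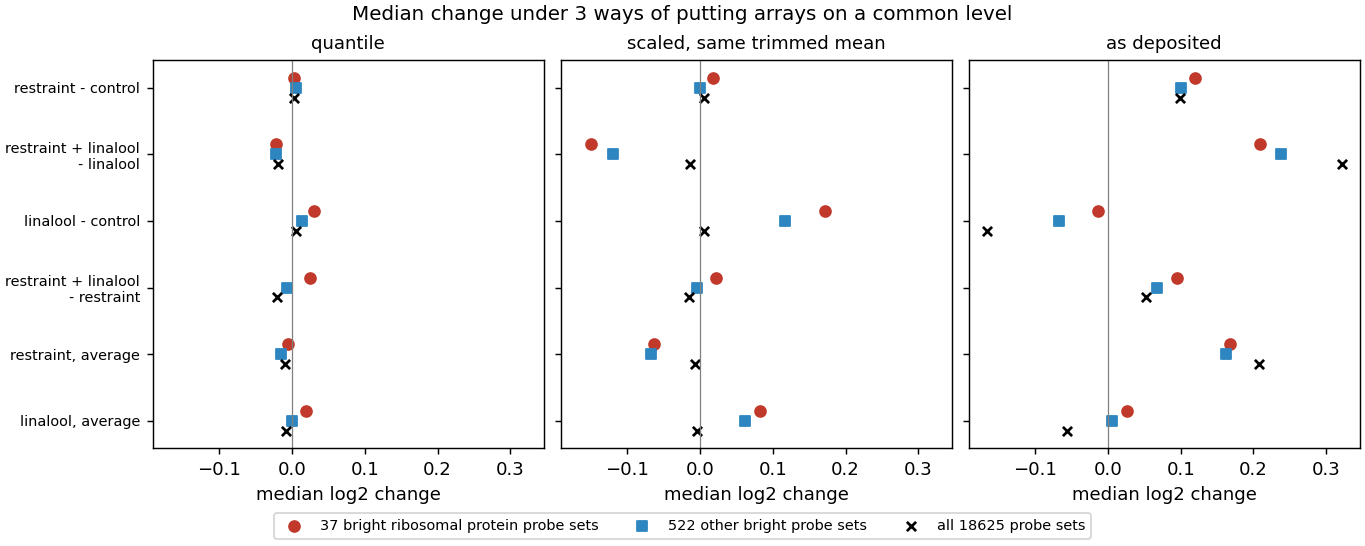
Median log2 change of the 37 bright ribosomal protein probe sets (circles), the 522 other probe sets of the same signal range (squares) and all 18625 tested probe sets (crosses) in 6 comparisons, after quantile normalization (left), scaling to the same trimmed mean (middle) and as deposited (right). For linalool against control the circles lie at 0.03, 0.17 and -0.01, each nearer to the squares than to the crosses.

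Other parts of the translation machinery were counted in the same fit, each gene at its brightest probe set. Of 35 probe sets that name a ribosomal protein gene along with other symbols, 0 were called by limma in any of the 7 comparisons. The same held for 15 elongation factors and other TOP mRNAs, for 27 initiation factors, and for 2 ribosomal protein genes named otherwise; the medians of these lists lay between -0.06 and 0.05. At an unadjusted limma p under 0.05 there were 0 to 5 of the 35, 1 to 3 of the 15, 0 to 5 of the 27 and 0 of the 2 in a comparison, where 7.99% to 18.9% of all probe sets were. Of 55 ribosome biogenesis genes only Emg1, a methyltransferase for 18S rRNA, was called: it rose when linalool was added to restraint (0.98, SE 0.21, limma adjusted p 0.0473) and with linalool on average (0.71, SE 0.15, limma adjusted p 0.0437). Averaged over odour it fell by 0.67 with restraint (SE 0.15, limma adjusted p 0.0197). Of all probe sets 0.65%, 0.714% and 4.21% were called in these 3 comparisons. They share groups, and each includes the rats restrained without linalool. Emg1 was not called for linalool against control, nor for restraint without or with linalool.

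Restraint on average gave a call in either direction for 4.21% of all probe sets, 2.65% being rises. Among 73 mitochondrial ribosomal proteins, which serve the separate ribosome of mitochondria, 4 fell in that comparison and none rose. They were Mrpl40 (-0.33), Mrpl2 (-0.29), Mrps34 (-0.24) and Mrpl21 (-0.21), with limma adjusted p from 0.0271 to 0.0462, and the list's median was -0.10 beside -0.01 over all genes and over the cytosolic ribosomal protein genes. The list's median was -0.05 for restraint without linalool and -0.13 with it, and 0.13 for linalool against control. None of the list was called in those comparisons, which share groups. For restraint on average, 2 of 10 microglial markers were called lower (P2ry12 by 1.00 and Cx3cr1 by 0.49), though that list's median was 0.13. Called lower too were 1 of 9 oligodendrocyte markers (Opalin, by 0.76, list median -0.04) and 1 of 8 endothelial ones (Slco1a4, by 0.34, list median -0.01). Of 7 astrocyte markers 1 was called higher (Gjb6, by 0.29, list median 0.04). The part of these markers in the values of the mitochondrial list was not tested. Of 22 genes of mTOR and growth signalling 1 was called: Ddit4, an inhibitor of mTORC1 induced by glucocorticoids, rose with restraint by 1.33 without linalool and by 1.59 with it (SE 0.12 each, limma adjusted p 4.26e-05 and 4.32e-06), where 0.902% and 1.69% of all probe sets were called. In these comparisons no probe set of the cytosolic ribosomal protein genes but Rps24 dim was called, Rps6 included. Their translation was not measured.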

How the data were processed

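The authors' deposited table holds 1 column of linear signal intensity per array. MAS5 is named per the submitters' processing notes; its version and scaling target are not given in the sources used here. Arrays were quantile-normalized on the log2 scale, and values are given as log2(signal + 16), a pseudocount that understates changes of dim probe sets. The 57 control probe sets were then left out, and probe sets with a mean at or above the 40th percentile were tested (18625). Two-sided tests came from 1 group-means model over the 16 arrays (R 4.3.3; limma 3.58.1, moderated by eBayes) without batch or replicate terms. A simulation of independent noise tried this model for average restraint alone, with changes larger than those called for Rps24 after quantile normalization. P-values measure the spread between these rats; the number of arrays limits the precision. Symbols came from the platform annotation, and no gene was named from a probe set with several. The genes and lists were chosen with earlier results of these data known. Named with values were called genes, otherwise the 3 highest and 3 lowest per comparison, the 3 widest and 3 narrowest spreads, genes whose probe sets differed by over 0.3, and Rplp0, Rps6, Rpl3, Rps3 and Rpl13a (Rplp1, Rplp2 and Rps27a had no probe set of their own); others, such as those whose groups did not overlap, were named after their values were seen. The alternatives were other scalings, pseudocount and filter, the BioC split, a replicate block, 1 probe set per gene and leaving out rats.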

Additional observations from a re-analysis of the deposited data

Results flagged for a closer look

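In groups of 4 rats, 1 rat stood apart from the other 3 by more than Dixon's 95% critical value for the gap over the range in 8 of 176 groups checked, and chance alone gives about 1 in 20. Rat 2 of the restrained group accounted for 4 of them: it was highest for Rpl11 (12.4013, against 12.27 to 12.29 in the other restrained rats), Rpl34 (12.493, against 12.42) and Rpl4 (12.1112, against 12.05 to 12.06), and lowest for Rps29 (13.3174, against 13.41 to 13.42). Rat 3 of that group was highest for Rpl7a (12.8278, against 12.72 to 12.74) and for Rps3 (12.3277, against 12.25 to 12.26). Rat 4 of that group was lowest for the dim Rpl39 (7.1369, against 7.78 to 7.85). Control rat 1 was highest for Rps28, a small-subunit protein (12.1583, against 11.98).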

How the results depend on the processing

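With 1 rat left out at a time, 18 of 4704 values of single probe sets lost their call, 0 gained one and 0 called values changed sign. The members called ranged from 0 to 1 for restraint with linalool and for restraint on average, and from 0 to 0 in the other 5 comparisons. The median change ranged from -0.04 to 0.03 (restraint minus control), -0.03 to 0.00 (restraint with linalool minus linalool), -0.01 to 0.05 (linalool minus control), 0.01 to 0.03 (linalool added to restraint), -0.03 to 0.01 (average restraint), 0.00 to 0.04 (average linalool) and -0.04 to 0.01 (interaction). Calls over all probe sets ran from 69 (without restrained rat 2) to 202 for restraint minus control. They ran from 112 (without restrained linalool rat 2) to 398 for restraint with linalool, and from 29 (the same rat) to 233 (without control rat 1) for linalool added to restraint. For average restraint they ran from 489 (without linalool rat 3) to 1004, and for average linalool from 37 (without restrained linalool rat 2) to 366 (without control rat 1), so the shares of all probe sets called are no firmer than this. The counts moved by over 1.5 times without control rat 2 or 3 or restrained rat 1, 2 or 4 (restraint minus control), linalool rat 1 or 3 or restrained linalool rat 1 or 2 (restraint with linalool), control rat 1 or any restrained rat, with or without linalool (linalool added to restraint), restrained rat 1 or 2, linalool rat 1 or 3 or restrained linalool rat 2 (average restraint), and any rat but control rats 2 and 4 and restrained rat 1 (average linalool). The Rps24 call for average restraint became 0 calls as deposited, with scaling to the same median or trimmed mean, with no filter, on the low-BioC arrays, with the replicate block, with 1 probe set per gene and, chosen after seeing the data, without control rats 1 and 2. The call for restraint with linalool became 2 as deposited (Rps24 and Rpl3) and 0 with no filter, low-BioC arrays, replicate block or 1 probe set per gene, which drops the dim Rps24 probe set. As deposited, the medians were 0.12 (restraint minus control), 0.22, -0.033, 0.093, 0.17 (average restraint) and 0.12 (interaction), in the order above with average linalool at 0.02. Scaled to the same median they were -0.18 (restraint with linalool), 0.14 (linalool minus control), -0.084 (average restraint), 0.056 (average linalool) and -0.16 (interaction), and to the same trimmed mean -0.14, 0.15, -0.056, 0.079 and -0.14. The cause was not tested. Over all probe sets, calls as deposited were 54 for restraint minus control (85.2% higher, against 69.6% after quantile normalization), 1103 with linalool (99.4% against 66.6%), 32 for linalool added to restraint and 1 for average linalool, and 98.2% against 62.9% were higher for average restraint. Other settings moved counts by over 1.5 times too: in the order restraint minus control, restraint with linalool, linalool added to restraint, average restraint and average linalool, no filter gave 102, 188, 46, 523 and 31 and the low-BioC arrays 95, 74, 0, 457 and 0, while 1 probe set per gene gave 49 and 48 for linalool added to restraint and average linalool. With the BioC level as a block they were 499, 51 and 1 for restraint with linalool, linalool added to restraint and average linalool. Without control rats 1 and 2, 42 were called for restraint minus control, 475 for restraint with linalool, 250 for linalool added to restraint and 246 for average linalool. Scaling to the same median gave 80 for average linalool. Deviations of same-numbered rats correlated by -0.03 to 0.04 (means of 6 pairs), too few to tell if rats were paired. The replicate block left 121, 312, 120, 719 and 84 calls in that order.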
